A study of Homo sapiens with 6 samples.

Results

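The enzymes and the chaperone that mature collagen were examined in the human hepatic stellate cell line LX-2 as a set of 10 genes chosen by name: the prolyl hydroxylase subunits P4HA1 and P4HA2, the lysyl hydroxylases PLOD1, PLOD2 and PLOD3, the lysyl oxidases LOX, LOXL1, LOXL2 and LOXL4, and SERPINH1, which encodes the collagen chaperone HSP47. These 10 genes, and the lists of other genes set beside them, were chosen with earlier results of these data known. All 10 were found once among the 60780 rows of the deposited gene table. Of these, 9 were among the 16707 genes with enough reads to be tested. LX-2 cells were cultured for 24 h in medium that colorectal carcinoma cells of the human line HCT116 had conditioned, either HCT116Vector (Vector-CM, n = 3) or HCT116FGFBP1 (FGFBP1-CM, n = 3). HCT116FGFBP1 overexpresses FGFBP1, which binds and releases fibroblast growth factors, from a lentivirus and was obtained by puromycin selection of infected clones, and the labels name no construct in LX-2. Nothing states that the 3 libraries of a group came from separate cultures, so p-values measure the spread between these libraries, which may be technical.

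Collagen chains are modified in the endoplasmic reticulum before they fold. Prolyl 4-hydroxylases hydroxylate proline and so stabilize the triple helix, lysyl hydroxylases hydroxylate lysine and thereby provide sites for glycosylation and for stable cross-links, and HSP47 binds the folded triple helix and escorts it to the Golgi. Once collagen is secreted, copper-dependent lysyl oxidases oxidize lysine and hydroxylysine, which starts the cross-linking of collagen and elastin fibers. In the liver, activated stellate cells are the main source of fibrillar collagen, and these enzymes are known from the study of fibrosis and of matrix stiffening around tumors.

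Total counts ranged from 14003780 to 18508113 per library, so that 3 counts, the upper limit for a gene without reads, stood for 0.158 to 0.217 CPM (counts per TMM-scaled library size, rescaled to a common depth). FGFBP1 itself had 0 to 4 counts per library in the LX-2 cells. Of 12 stellate or myofibroblast markers, 10 had reads in all 6 libraries, with VIM at 389 to 511 FPKM and COL1A1 at 13.0 to 18.6 FPKM (fragments per kilobase of gene, scaled to library depth), while ACTA2 was at only 1.26 to 1.79 FPKM, DES had at most 4 counts and LRAT had none. The summed level of these stellate markers was 3552 to 3820 CPM in Vector-CM and 2758 to 3292 CPM in FGFBP1-CM, without overlap. VIM weighed most in this sum, at 35166 to 44146 counts per library, against 1899 to 3023 for COL1A1 and 59 to 84 for ACTA2. Of the 10 stellate markers tested, 1 was past the threshold and lower. Summed hepatocyte markers were 42.1 to 45.3 CPM in Vector-CM and 18.5 to 28.2 CPM in FGFBP1-CM, with 4 of 6 tested past the threshold and lower. Of all tested genes, 0.0658% were past this threshold (adjusted p under 0.05, edgeR) and lower. Of 10 colorectal epithelial markers, 6 had reads in all 6 libraries, CEACAM5 had none, and 3 were tested with 0 past the threshold. Their summed level was 216 to 240 CPM in Vector-CM and 206 to 224 CPM in FGFBP1-CM. EPCAM, at 4 to 12 counts, and CDH1, at 4 to 7 counts, gave little of this sum, which other markers of the list carried. The part of these shifts in the values given here was not tested.

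The region before the transcription start is shown for 4 of the 10 genes. LOX had the lowest fold change of the 9 tested genes, P4HA2 was among the 3 genes with the lowest p, LOXL1 was the gene with the highest fold change, and SERPINH1 encodes a heat shock protein. The 250 bases before each RefSeq start (GRCh38.p14) are written 5′ to 3′ on the strand of the gene, at chr5:122078260-122078509 (minus strand) for LOX, chr5:132227092-132227341 (minus strand) for P4HA2, chr15:73926212-73926461 (plus strand) for LOXL1 and chr11:75562003-75562252 (plus strand) for SERPINH1. Capitals mark the letters searched on both strands, ACGTG or GCGTG (the core of the hypoxia response element), GAANNTTC (the core of the heat shock element) and GTGGGCG (a core of the EGR1 site, which can overlap GCGTG).
LOX: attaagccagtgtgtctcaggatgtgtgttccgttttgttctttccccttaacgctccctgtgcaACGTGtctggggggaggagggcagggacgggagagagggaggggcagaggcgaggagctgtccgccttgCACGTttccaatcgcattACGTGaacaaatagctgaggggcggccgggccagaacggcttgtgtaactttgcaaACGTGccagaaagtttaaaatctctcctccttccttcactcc
P4HA2: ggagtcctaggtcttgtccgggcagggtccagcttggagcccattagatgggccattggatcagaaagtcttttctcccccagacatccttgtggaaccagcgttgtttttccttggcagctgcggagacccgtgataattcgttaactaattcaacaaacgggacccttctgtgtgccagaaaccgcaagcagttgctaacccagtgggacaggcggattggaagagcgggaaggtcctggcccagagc
LOXL1: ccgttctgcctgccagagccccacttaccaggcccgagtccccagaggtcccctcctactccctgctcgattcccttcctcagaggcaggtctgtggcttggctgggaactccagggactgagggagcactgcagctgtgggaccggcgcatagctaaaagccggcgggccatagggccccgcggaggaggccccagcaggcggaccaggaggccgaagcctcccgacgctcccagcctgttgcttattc
SERPINH1: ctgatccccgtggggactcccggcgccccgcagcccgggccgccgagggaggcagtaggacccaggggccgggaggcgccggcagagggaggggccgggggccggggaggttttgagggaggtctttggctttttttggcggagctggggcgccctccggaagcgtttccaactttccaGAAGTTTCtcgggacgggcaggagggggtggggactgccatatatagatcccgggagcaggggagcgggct

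RefSeq windows were found for 9 of the 10 genes, in 12 windows of 300 bases that also hold the first 50 bases after the start. The first LOX window held ACGTG 4 times, within the 250 bases shown, and a count of 4 or more was found in 0.843% of the 35116 windows in the RefSeq table. PLOD2 held ACGTG 2 times and GCGTG once, P4HA1 held ACGTG once, and PLOD1 held GCGTG 2 times. The second and the third LOX window each held ACGTG once and GCGTG once. Each SERPINH1 window held ACGTG once, and the second also held GCGTG 2 times. In all, 8 of the 12 windows, from 5 genes, held ACGTG or GCGTG, against 48.45% of all windows, and windows of the same gene can overlap. One window each of SERPINH1 and PLOD1 held GAANNTTC, against 6.77% of all windows. GTGGGCG was in no window of these genes and in 9.52% of all windows. None of these letters was found in the windows of P4HA2, PLOD3, LOXL1 or LOXL4. A match is a description of the sequence and not evidence of binding.

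All 10 genes are protein coding. Their positions were looked up by Ensembl identifier in GENCODE 29, on GRCh38. LOX (ENSG00000113083) spans chr5:122063195-122078360 on the minus strand in 10 exon blocks, LOXL2 (ENSG00000134013) spans chr8:23297189-23425328 on the minus strand in 20 blocks, and P4HA2 (ENSG00000072682) spans chr5:132191838-132295315 on the minus strand in 24 blocks. P4HA1 (ENSG00000122884), PLOD2 (ENSG00000152952), PLOD3 (ENSG00000106397) and LOXL4 (ENSG00000138131) lie on chromosomes 10, 3, 7 and 10 (minus strand), and PLOD1 (ENSG00000083444), LOXL1 (ENSG00000129038) and SERPINH1 (ENSG00000149257) on chromosomes 1, 15 and 11 (plus strand).

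LX-2 cells carried transcripts of all 10 genes, and 8 of them were above 10 FPKM on average. In order, the mean FPKM over the 6 libraries was 41.1 ± 5.47 (SD, n = 6) for LOXL2, 34.6 ± 2.49 for P4HA1, 34.0 ± 3.05 for P4HA2, 26.8 ± 1.36 for PLOD1, 16.4 ± 3.45 for LOX, 14.0 ± 0.499 for PLOD2, 13.2 ± 0.755 for SERPINH1, 10.8 ± 0.841 for PLOD3, 2.80 ± 0.554 for LOXL1 and 0.124 ± 0.0287 for LOXL4. The ranges of LOXL2 and P4HA1 overlapped, as did those of P4HA1 and P4HA2, of LOX and PLOD2, and of PLOD2 and SERPINH1, when both groups were pooled. The other neighbors did not overlap. Within Vector-CM alone, LOXL2 (44.0 to 47.4) lay wholly above P4HA1 (33.6 to 38.4), and LOX (17.8 to 20.6) wholly above PLOD2 (13.3 to 14.1). In FGFBP1-CM the mean of LOX (13.6 ± 2.04) was below that of PLOD2 (14.4 ± 0.274), with overlapping ranges. LOXL1 was above LOXL4 by 22.7-fold, the widest step in the order.

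The order depends on the gene length that FPKM divides by. The deposited FPKM imply 10128 bases for P4HA2, of which the longest principal transcript in GENCODE 29 has 3349, and 3093 bases for P4HA1, whose principal transcript has 2844. Per kilobase of principal transcript, P4HA2 ranked first at 103 ± 10.7 CPM (SD, n = 6), P4HA1 was at 37.8 ± 3.16 and LOX moved from rank 5 to rank 8 at 18.0 ± 4.01. LOXL1 and LOXL4 were the lowest 2 on both lengths. A change between groups within a gene does not depend on this length.

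**Figure D1:**
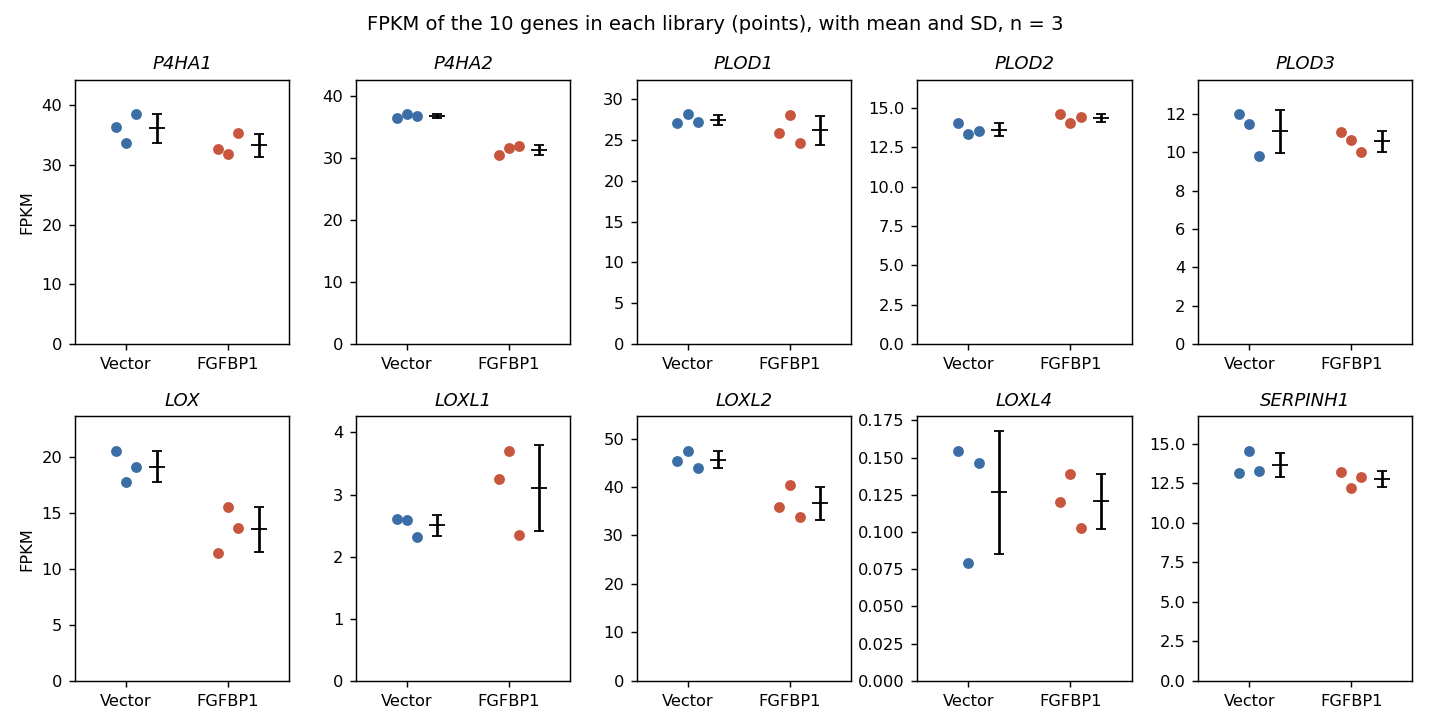
FPKM (vertical axes, each from 0) of the 10 genes in each of 3 Vector-CM libraries (blue) and 3 FGFBP1-CM libraries (red), with the mean and SD of each group in black. LOX, LOXL2 and P4HA2 sit lower in each FGFBP1-CM library than in each Vector-CM library, while LOXL1 reaches 3.70 FPKM in FGFBP1-CM replicate 2.

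The design asks how FGFBP1 overexpression in the tumor cells changes stellate cell transcripts. Of the 9 tested genes, 0 passed the threshold for the adjusted p (0.05) by edgeR, which 0.12% of all tested genes passed, 0.0658% with a lower and 0.0539% with a higher level in FGFBP1-CM. LOX, LOXL2 and P4HA2 came close with lower levels in FGFBP1-CM, at an adjusted p of 0.0566, 0.0568 and 0.0632 (edgeR), and 0.539% of all tested genes had a lower level with an adjusted p under 0.065. At an unadjusted p under 0.05 these 3 genes of 9 were lower (33.3%) and 0 were higher, against 21.7% of all tested genes in either direction, 10.7% lower and 11.1% higher. DESeq2 called the same 3 genes at an adjusted p under 0.05, where 2.18% of genes with an adjusted p were called lower, and limma on FPKM called none of them, with 3 at an unadjusted p under 0.05. The median log2 fold change of the 9 genes was -0.13, against 0.00319 over all tested genes, and 7 of 9 were below 0, against 49.3% of all tested genes. In bulk RNA, fewer cells with a transcript and less transcript per cell cannot be told apart.

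LOX, the secreted enzyme that cross-links fibrillar collagen and elastin, had FPKM of 20.6, 17.8 and 19.1 for replicates 1 to 3 of Vector-CM, against 11.5, 15.5 and 13.7 for those of FGFBP1-CM. Each FGFBP1-CM library was below each Vector-CM library, and FGFBP1-CM replicate 1 was the lowest. SRFBP1, which shares 138 bases with LOX exons on the opposite strand, had 318 to 601 counts per library. Its edgeR estimate was 0.20 on the log2 scale (adjusted p = 0.317). The log2 fold change of LOX was -0.53 (SE 0.101, 95% interval -0.75 to -0.32), which is a change of -31.0% in level, and 38 of the 16707 tested genes had a lower p. The adjusted p of 0.0566 (edgeR) lay just above the threshold. Without FGFBP1-CM replicate 1, 2 or 3 LOX was past the threshold, at log2 fold changes of -0.41, -0.65 and -0.54 with adjusted p values of 0.0257, 0.00875 and 0.0308, and without any one Vector-CM library it was not, with adjusted p of 0.15 to 0.242 (edgeR). After a correction for GC content and length LOX was past the threshold as well (log2 fold change -0.59, adjusted p = 0.0356, edgeR; range over the 16 alternatives 1.59e-08 to 0.242).

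LOXL2, a lysyl oxidase with scavenger receptor domains that acts on basement membrane collagen IV, had FPKM of 45.4, 47.4 and 44.0 for replicates 1 to 3 of Vector-CM, against 35.8, 40.4 and 33.7 for those of FGFBP1-CM. AC090197.1, which shares 178 bases with LOXL2 exons on the opposite strand, had 539 counts over all 6 libraries. The LOXL2 groups did not overlap. The log2 fold change was -0.35 (SE 0.0749, 95% interval -0.51 to -0.19), a change of -21.5%, with an adjusted p of 0.0568 (edgeR). LOXL2 was past the threshold when FGFBP1-CM replicate 2 was left out (-0.43 on the log2 scale, adjusted p = 0.012) and with the replicate block (adjusted p = 0.0465; range over the 16 alternatives 0.000384 to 0.242, edgeR and the other tools).

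LOXL1, which is known for its part in elastic fiber assembly, differed in sign from LOX and LOXL2. Its counts were low, at 171, 132 and 128 in Vector-CM and 219, 215 and 139 in FGFBP1-CM, or FPKM of 2.61, 2.59 and 2.31 against 3.25, 3.70 and 2.35. FGFBP1-CM replicates 1 and 2 were above each Vector-CM library. FGFBP1-CM replicate 3 lay within the Vector-CM range by FPKM, and in CPM, the scale of the test, it was at 8.50, below the lowest Vector-CM library at 8.62. The log2 fold change of 0.27 (SE 0.153, 95% interval -0.06 to 0.60) did not pass (adjusted p = 0.318, edgeR). It was 0.12 without FGFBP1-CM replicate 2. Without FGFBP1-CM replicate 3 it was 0.43 (unadjusted p = 0.00531, adjusted p = 0.0845, edgeR). After the GC and length correction it was 0.32 (unadjusted p = 0.0421, adjusted p = 0.222, edgeR). The antisense gene LOXL1-AS1, which shares 335 bases with LOXL1 exons on the opposite strand, had 523 to 677 counts per library and an edgeR estimate of -0.19 on the log2 scale (adjusted p = 0.194). Whether counting used strand is not given in the sources used here. Reads of LOXL1 and LOXL1-AS1, and of the other pairs named here that share exon bases, may therefore not be separated.

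LOXL4, which has scavenger receptor domains like LOXL2, had 10, 4 and 8 counts in Vector-CM and 8, 8 and 6 in FGFBP1-CM. These counts were below the filter for testing. Without the filter its log2 fold change was -0.12 (unadjusted p = 0.8, edgeR), and a difference was not detectable at this depth.

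The balance among the 4 lysyl oxidases was taken as the share of each in their summed FPKM, which does not depend on library scaling. In each family the sums and shares do depend on the gene lengths that FPKM divides by. The sum was 67.4 ± 1.63 FPKM in Vector-CM and 53.4 ± 5.51 FPKM in FGFBP1-CM (SD, n = 3), without overlap between the groups. LOXL2 made up 67.7% ± 1.98 of it in Vector-CM and 68.7% ± 1.79 in FGFBP1-CM, and LOX 28.4% ± 1.97 and 25.3% ± 2.46, with overlapping groups in both cases. The share of LOXL1 was 3.80%, 3.82% and 3.53% in Vector-CM and 6.42%, 6.20% and 4.72% in FGFBP1-CM, with each FGFBP1-CM library above each Vector-CM library. Its exact two-sided permutation p was 0.1, the smallest that 3 libraries against 3 can give, and 0.36 adjusted over the 9 shares in the 3 families. No other share had groups that did not overlap. In FGFBP1-CM replicate 3 LOXL1 itself was at 2.35 FPKM, within the Vector-CM range of 2.31 to 2.61 FPKM. The family sum in that library was 49.8 FPKM, against 65.6 to 68.7 FPKM in Vector-CM, so the higher share there came with a lower sum.

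**Figure D2:**
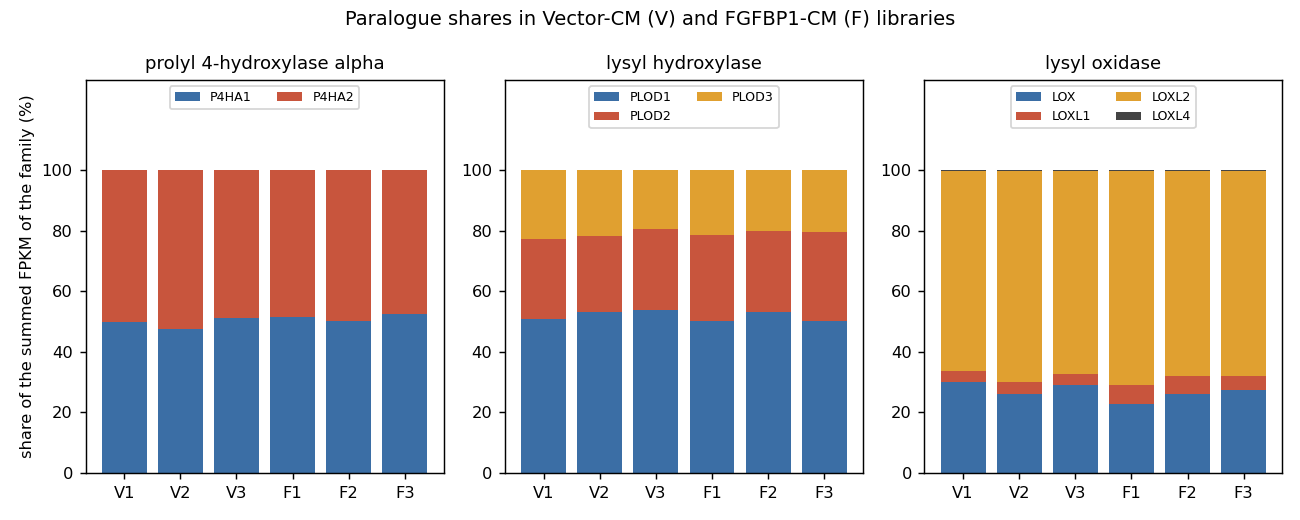
Share (vertical axis, percent) of each paralog in the summed FPKM of its family, with 1 stacked bar per library (V1 to V3, Vector-CM; F1 to F3, FGFBP1-CM). LOXL2 holds most of the lysyl oxidase sum in all 6 libraries, and the LOXL1 band is wider in the 3 FGFBP1-CM libraries. The shares depend on the gene lengths that FPKM divides by.

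P4HA2 and P4HA1 encode alternative catalytic subunits of collagen prolyl 4-hydroxylase. P4HA2 had FPKM of 36.5, 37.1 and 36.8 in Vector-CM and of 30.4, 31.6 and 31.9 in FGFBP1-CM, so that the groups did not overlap and each was tight. Its log2 fold change was -0.27 (SE 0.0606, 95% interval -0.40 to -0.14), a change of -16.9%, with an adjusted p of 0.0632 (edgeR). It was past the threshold without FGFBP1-CM replicate 2 (adjusted p = 0.0397; range over the 16 alternatives 0.00575 to 0.25). The antisense gene P4HA2-AS1 shares 548 bases with P4HA2 exons and had 0 to 8 counts per library.

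P4HA1 had FPKM of 36.2, 33.6 and 38.4 in Vector-CM and of 32.6, 31.8 and 35.3 in FGFBP1-CM, with overlapping groups. The log2 fold change was -0.15 (SE 0.0724, 95% interval -0.31 to 0.00135; adjusted p = 0.234, edgeR), it was -0.10 without Vector-CM replicate 3, and after the GC and length correction it was -0.24 (adjusted p = 0.0793; range over the 16 alternatives 0.0649 to 0.609). The summed FPKM of both subunits was 72.9 ± 2.27 in Vector-CM and 64.5 ± 2.33 in FGFBP1-CM (SD, n = 3), without overlap. P4HA1 made up 49.5% ± 1.78 of that sum in Vector-CM and 51.5% ± 1.22 in FGFBP1-CM, with overlapping groups (exact permutation p = 0.2).

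The lysyl hydroxylases had smaller differences. PLOD1, which hydroxylates lysine in the helical part of collagen, had FPKM of 27.1, 28.1 and 27.1 in Vector-CM and of 25.9, 28.0 and 24.6 in FGFBP1-CM, with a log2 fold change of -0.10 (95% interval -0.25 to 0.04; adjusted p = 0.397, edgeR). PLOD2, which hydroxylates the telopeptide lysines that form the most stable cross-links, had FPKM of 14.1, 13.3 and 13.5 against 14.6, 14.1 and 14.4. Its log2 fold change was 0.04 (95% interval -0.09 to 0.17; adjusted p = 0.724, edgeR), and -0.02 after the GC and length correction, so that its direction depended on this choice. PLOD3, which also has glycosyltransferase activity, had FPKM of 12.0, 11.5 and 9.82 against 11.1, 10.6 and 10.0 and a log2 fold change of -0.10 (95% interval -0.27 to 0.07; adjusted p = 0.471, edgeR). Leaving out 1 library moved the estimate of PLOD3 from -0.05 (without Vector-CM replicate 1) to -0.18 (without Vector-CM replicate 3), and that of PLOD1 was -0.16 when FGFBP1-CM replicate 2 was left out and -0.06 when replicate 3 of that group was. That of PLOD2 was 0.02 without Vector-CM replicate 2. The groups overlapped in CPM for each of these genes. By FPKM alone, the PLOD2 values of FGFBP1-CM lay above those of Vector-CM, with the nearest pair equal when rounded. PLOD2 made up 26.1% ± 0.841 of the summed FPKM of the 3 genes in Vector-CM and 28.2% ± 1.39 in FGFBP1-CM, with overlapping groups (exact permutation p = 0.2). PLOD3 shares 429 bases of exons with ZNHIT1 on the opposite strand, which had 709 to 925 counts per library.

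SERPINH1 had FPKM of 13.1, 14.5 and 13.2 in Vector-CM and of 13.2, 12.2 and 12.9 in FGFBP1-CM. In CPM the 3 FGFBP1-CM libraries were at 80.9, 76.9 and 80.7, below the 83.0, 92.5 and 85.3 of Vector-CM, while by FPKM the groups overlapped. The log2 fold change was -0.13 (SE 0.0668, 95% interval -0.27 to 0.02; adjusted p = 0.284, edgeR). It was -0.08 without Vector-CM replicate 2 and -0.07 after the GC and length correction. With SERPINH1, 4 of the 9 tested genes had CPM that were lower in FGFBP1-CM without overlap, against 13.2% of all tested genes, and 0 were higher without overlap, against 12.8%.

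**Figure D3:**
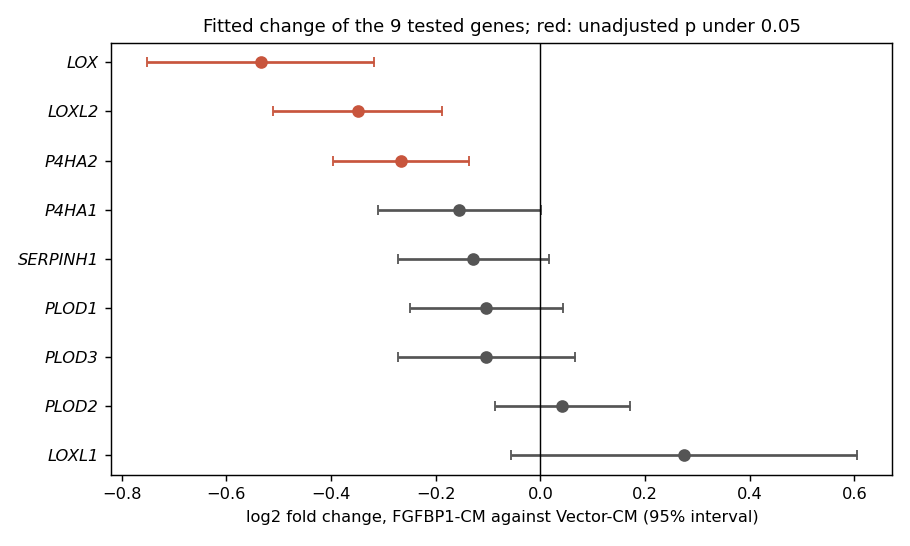
Fitted log2 fold change (horizontal axis, FGFBP1-CM against Vector-CM) of the 9 tested genes with the 95% interval of the edgeR fit. The intervals of LOX, LOXL2 and P4HA2 (red, unadjusted p under 0.05) lie below 0, and LOXL1 has the widest interval.

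The direction of 8 of the 9 genes was the same in the analysis described and in all 16 alternatives, with PLOD2 as the exception. LOX was past the threshold in 7 of the 16, LOXL2 in 5, P4HA2 in 4 and the other 6 genes in 0. LOX, LOXL2 and P4HA2 had an unadjusted p under 0.05 in all 16.

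**Figure D4:**
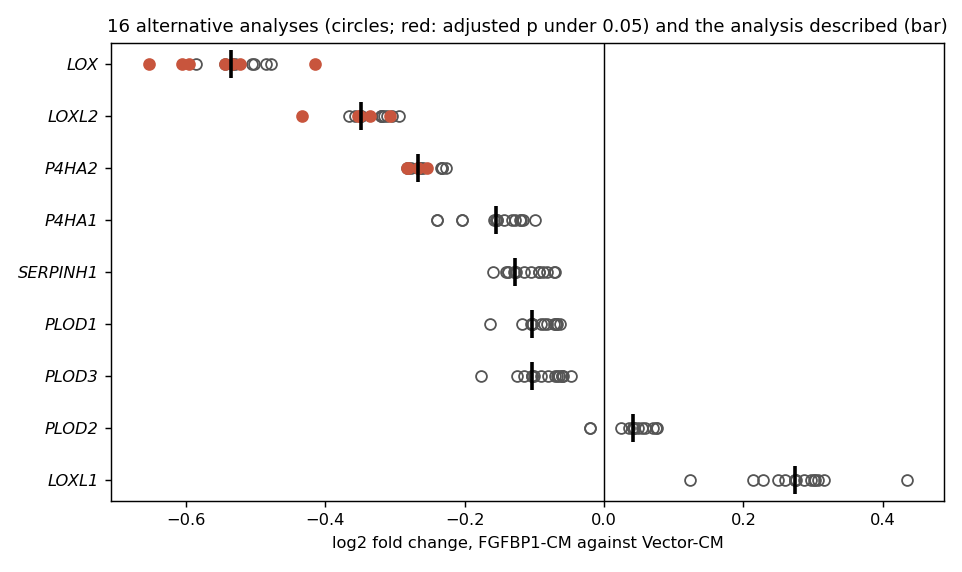
Log2 fold change (horizontal axis) of the 9 tested genes in 16 alternative analyses (circles, red where the adjusted p was under 0.05) and in the analysis described (black bar). LOX ranges from -0.65 to -0.41, and PLOD2 is the only gene with circles on both sides of 0.

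The other genes of the pathway were counted from a list of 30 genes for collagen folding, glycosylation, export and propeptide removal. Of the 28 tested, 13 were lower in FGFBP1-CM at an unadjusted p under 0.05 (46.4%, against 10.7% of all tested genes). By the same measure 3 were higher, against 11.1% of all tested genes. At the adjusted threshold 0 passed in edgeR or in limma on FPKM. In DESeq2 3 passed, all lower, where 2.18% of genes with an adjusted p were called lower. The median log2 fold change was -0.19. KDELR3, a receptor that returns proteins to the endoplasmic reticulum, had the lowest value of those at an unadjusted p under 0.05, -0.45 (adjusted p = 0.0568, edgeR), with 37.1 ± 0.427 FPKM in Vector-CM and 27.7 ± 3.69 in FGFBP1-CM (SD, n = 3). FKBP7, a prolyl isomerase of the endoplasmic reticulum, had the highest, 0.40 (adjusted p = 0.196, edgeR). P4HB, the beta subunit that pairs with P4HA1 and P4HA2, was at -0.31 (SE 0.0856), the collagen galactosyltransferase COLGALT1 at -0.28 and the procollagen C-proteinase BMP1 at -0.17, and these were chosen after their values were seen. LOXL3, the remaining lysyl oxidase, was at -0.15 (unadjusted p = 0.324, edgeR).

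Collagen chains, which are substrates of these enzymes, were counted together with elastic fiber proteins in a list of 18 genes. The elastin gene ELN was not tested, at a mean of 0.00656 FPKM in Vector-CM and 0.00558 FPKM in FGFBP1-CM. Of the 17 tested, 13 were lower (76.5%, against 10.7% of all tested genes) and 0 higher (against 11.1%) at an unadjusted p under 0.05. The median log2 fold change was -0.35. At the adjusted threshold 0 passed in edgeR or in limma on FPKM. In DESeq2 7 passed, all lower, where 2.18% of genes with an adjusted p were called lower. COL5A1, a chain of the collagen that controls fibril diameter, had the lowest value, -0.60 (adjusted p = 0.0557, edgeR), with 19.4 ± 1.41 FPKM in Vector-CM and 13.1 ± 2.49 in FGFBP1-CM (SD, n = 3). COL4A1, a basement membrane chain, had the highest value of those at an unadjusted p under 0.05, -0.18 (adjusted p = 0.126, edgeR). COL1A1, chosen after its value was seen, was at -0.09 (unadjusted p = 0.398, edgeR).

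Several of the 10 genes, among them P4HA1, P4HA2, PLOD2 and LOX, are known to be induced by hypoxia-inducible factors, so 17 other hypoxia-inducible genes were counted. Of the 14 tested, 7 were lower (50%, against 10.7% of all tested genes) and 0 higher (against 11.1%) at an unadjusted p under 0.05, with a median log2 fold change of -0.20. By sign, 11 were below 0 and 3 above, against 49.3% of all tested genes below 0. Those above 0 were ADM (0.17), EGLN1 (0.099) and KDM3A (0.05). VEGFA, chosen after its value was seen, was at -0.000851 (unadjusted p = 0.992, edgeR). At the adjusted threshold 1 passed in edgeR, 6 in DESeq2 and 0 in limma on FPKM. The shares of all genes called lower were 0.0658% in edgeR and 2.18% in DESeq2. NDRG1, a stress-responsive gene, passed the adjusted threshold in edgeR at -0.40 (adjusted p = 0.0249), with 20.5 ± 0.741 FPKM in Vector-CM and 15.9 ± 0.156 in FGFBP1-CM (SD, n = 3), and lost this call in limma on FPKM and whenever 1 Vector-CM library was left out, with 0 genes of the list called. ALDOC, a glycolytic aldolase, was at -0.45 (adjusted p = 0.0619, edgeR), and LDHA, lactate dehydrogenase A, had the highest value of those at an unadjusted p under 0.05, -0.23 (adjusted p = 0.126, edgeR). These lists hold none of the 10 genes.

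**Figure D5:**
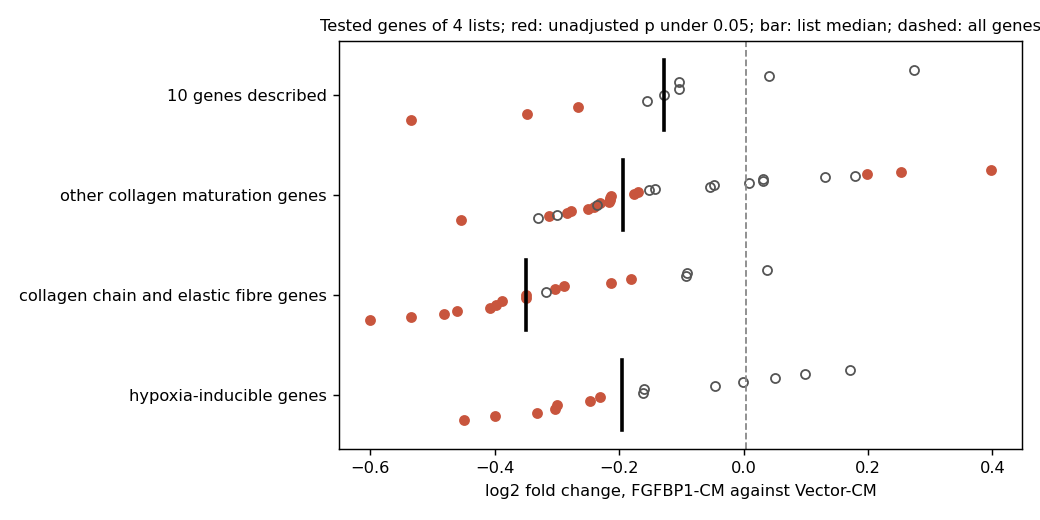
Log2 fold change (horizontal axis) of the tested genes in 4 lists, red where the unadjusted p was under 0.05, with the list median as a bar and the median of all tested genes as a dashed line. The collagen chain and elastic fiber list has the lowest median, -0.35, and the 10 genes described the highest, -0.13.

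The mean pattern of the 9 tested genes over the 6 libraries, as log2 CPM centered on each gene's mean, was 0.09, 0.08 and 0.06 for replicates 1 to 3 of Vector-CM, against -0.11, 0.01 and -0.12 for those of FGFBP1-CM. FGFBP1-CM replicate 2 lay nearest to the Vector-CM libraries. The genes with the most similar pattern among 15024 candidates were GMEB2, RTL10 and RBM3, with root mean square distances of 0.00982, 0.0139 and 0.0172 over 6 libraries. PLOD1 was nearest to the mean pattern among the 9 (0.0382), and LOXL1 and LOX were farthest (0.259 and 0.232).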

How the data were processed

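RNA of LX-2 cells was sequenced in 6 libraries, 3 per group, and the titles give group and replicate. Paired-end reads were mapped by the authors (Hisat2 2.0.5), who deposited raw counts per gene made by featureCounts 1.5.0-p3. The authors also deposited FPKM, computed from count and gene length, and for 22688 genes counted in each library the implied length did not differ between libraries. The submitters' processing notes name hg18, whereas the rows carry Ensembl identifiers, of which 96.3% are in GENCODE 29 (GRCh38). GENCODE 29 gave positions, the GC content and lengths used in the correction, and the lengths of principal transcripts. RefSeq gave the windows around gene starts, and neither served for counting. For 22063 genes with reads in all 6 libraries, the implied length was within 1 base of the GENCODE 29 exon length in 47.3%. The annotation release and strandedness are not given in the sources used here. The labels name ribosomal RNA depletion and the methods also poly(A) selection.

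Differences in counts were tested by edgeR 4.0.16 quasi-likelihood (R 4.3.3) after filterByExpr and TMM scaling, with Benjamini-Hochberg adjustment over 16707 genes and a threshold of 0.05. CPM are counts relative to TMM-scaled library size. The SE was the log2 fold change divided by the square root of F, and 95% intervals used the moderated t distribution. Shares were compared by exact two-sided permutation. Alternatives were no filter, a mean of at least 1 CPM, library size only, RLE scaling, DESeq2 1.42.0, limma 3.58.1 on log2(FPKM + 1) and log2(FPKM + 0.1), the replicate block, and leaving out each library. A loess correction (span 0.3) for GC content and length, with and without the block, and levels per principal transcript were chosen after seeing the data. Procedures were tested on simulated data. The 10 genes and the lists were chosen with earlier results of these data known. By rule, the list genes named were those with the lowest and the highest fold change at an unadjusted p under 0.05 and those past the threshold. Named outside this rule were LOXL3, ELN, the hypoxia-inducible genes above 0, and the genes said to be chosen after their values were seen. The most similar pattern was the smallest root mean square distance to the mean of the tested members, among genes with a symbol and a mean of at least 1 CPM. The intervals of fold changes include the spread between libraries, and the limit for a gene without reads covers counting error only. No libraries were merged, since each pair of a group differed by more than sampling noise (chi-square per degree of freedom 2.88 to 10.2).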

Additional observations from a re-analysis of the deposited data

How the results depend on the processing

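With 3 libraries per group, small changes of the test moved many genes across the threshold. The edgeR analysis described above called 20 genes, 9 higher and 11 lower, and with RLE scaling 38 passed, 24 of them higher. The count was 1382 with no filter, 11 at a mean of at least 1 CPM, 580 in DESeq2, 1 in limma with either pseudocount (FPKM + 1 or FPKM + 0.1), 90 with the replicate block, 39 after GC and length correction, 262 with both, and 4 to 883 without 1 library (the highest without FGFBP1-CM replicate 2). The edgeR prior had infinite degrees of freedom with no filter, against 9.32. The cause of these differences was not tested. Of the 10 genes, 0 passed in the analysis described. With no filter 3 passed, in DESeq2 3, with the replicate block 1, after GC and length correction 1 and with both 3. Without 1 library 0 to 3 passed (the highest without FGFBP1-CM replicate 2, and 0 without any one Vector-CM library). At an unadjusted p under 0.05 there were 5 after GC and length correction, with or without the replicate block. Of these, 4 were lower and 1, LOXL1, was higher, against 3 in the analysis described, all lower. Without 1 library there were 3 to 5. The median log2 fold change of the 9 tested genes was -0.0876 in limma on log2(FPKM + 1), -0.0712 after GC and length correction and -0.0707 with the replicate block added, and -0.157 to -0.0864 without 1 library (the highest without Vector-CM replicate 2), against -0.128.

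The count of other collagen maturation genes past the adjusted threshold was 3 with no filter and in DESeq2, 1 after GC and length correction, 3 with the replicate block added, and 0 to 3 without 1 library, against 0. At an unadjusted p under 0.05 it was 10 in limma with either pseudocount, 10 after GC and length correction, 9 with the replicate block added, and 9 to 17 without 1 library, against 16. For collagen chain and elastic fiber genes, the adjusted count was 1 with RLE scaling, 11 with no filter, 7 in DESeq2, 4 with the replicate block, 1 after GC and length correction, 5 with both, and 0 to 10 without 1 library, against 0. For hypoxia-inducible genes it was 7 with no filter, 6 in DESeq2, 0 in limma with either pseudocount, 6 after GC and length correction with the replicate block, and 0 to 7 without 1 library, against 1.

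PLOD2 turned from 0.0416 to -0.0195 after GC and length correction and to -0.0198 with the replicate block added. The difference in the share of LOXL2 ranged from -0.0347 to 2.1 percentage points without 1 library, and was -0.0347 without FGFBP1-CM replicate 1. That of PLOD3 ranged from -1.42 to 0.127 and was 0.127 without Vector-CM replicate 1. Shares by CPM kept the direction of each FPKM share. Over the single genes, 16 values gained a call at the adjusted threshold, and 126 did not change their call or direction. None of these genes passed in the analysis described, so no call could be lost, and an unchanged call can hide a higher p. For example, the adjusted p of LOX was 0.242 without Vector-CM replicate 3, against 0.0566 (edgeR). Deviations of same-numbered libraries had correlations of -0.118, -0.022 and 0.148 over 15033 genes, and 2 of 6 libraries correlated best with their own number. These few values show no clear pairing by number and cannot exclude it. Across genes, which are not independent replicates, Spearman rho between GC content and log2 fold change was -0.214, and -0.0321 after the correction.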
